A study of Mus musculus with 714 samples.

Results

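Uterine epithelial cells of mice at postnatal day (pnd) 28 were compared with those at pnd14. The members were all cells labelled with these ages whose counts of the smooth muscle genes Cnn1, Des, Myl9 and Mylk summed to fewer than 5. This kept 48 of 56 cells at pnd28 and 77.5% of the cells at pnd14, where 39 were dropped, and together 25.5% of the 714 cells of the series. Near the limit, 2 cells at pnd28 had 4 such counts and 3 had 5. At pnd14, 5 cells had 3 such counts, 0 had 4 and 5 had 5.

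The series profiled CD326+ cells (CD326 is EpCAM, a surface protein of epithelia) from uteri of ICR mice, an outbred strain, at 5 ages. Beside pnd14 and pnd28, these ages were pnd0, pnd7 and pnd56. The kept cells at pnd0, pnd7 and pnd56 made up 23.95%, 36.27% and 6.162% of the cells of the series. They were used for levels only. Each cell was made into a CEL-seq library, which amplifies RNA by transcription in vitro and sequences the tails of transcripts, and the table holds a whole-number count for each gene and cell. No treatment, animal, litter, pool or oestrous stage is named in the labels for these groups. Each age was therefore taken as 1 sample, and no test, p-value or standard error was made from its cells. All intervals in brackets are 95% intervals that cover counting error only.

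The mouse uterus is lined at birth by a simple epithelium, from which glands bud into the stroma in the first weeks of life. Gland cells secrete proteases, protease inhibitors and other proteins, and the luminal epithelium forms a barrier that carries immunoglobulins, mucins and antimicrobial proteins. Oestrogen and progesterone set the level of many of these proteins in the mature organ, and ovarian oestrogen rises around puberty.

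The kept cells held 82046 counts at pnd28 and 268815 at pnd14, with medians of 1568.5 and 1794 counts and of 628.5 and 697.5 genes per cell. Krt18, a keratin of simple epithelia, was counted in 79.2% of pnd28 and 97.8% of pnd14 cells, and Epcam, the gene of the sorted protein, in 27.1% and 36.6%. Krt18 was also counted in 6 of 8 dropped pnd28 cells and 28 of 39 dropped pnd14 cells, at median depths of 1730 and 1770 counts. A count of Krt18 thus did not by itself separate kept from dropped cells. Whether the dropped cells are epithelial was not tested. No cells were near copies of each other, since the highest correlation of log2 counts between any pair was 0.502. The labels name no plate, batch or sequencing run. In the numbering of the cell titles, blocks of 96 were taken as runs, so a run here is only a block of title numbers. Runs 3, 4 and 7 hold 56, 20 and 58 of the kept pnd14 cells and run 9 holds all pnd28 cells, so age and run cannot be told apart.

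Among the 12479 genes of the table, 3198 had at least 20 counts over both ages and are called measured. The level of a gene is its sum over cells in counts per 1000000 counts (CPM), and a difference is the log2 ratio of the pnd28 level to the pnd14 level. Where an age had no count, 3 counts over that age were put in its place, and the ratio is a bound written as "at least". At pnd28, 12.1% of the measured genes stood at least 2-fold higher and 23.7% at least 2-fold lower, and the median log2 ratio over measured genes was −0.22. Each ratio was computed again without the cell that held most counts of that gene in the age with the higher level. After this, 6.72% were still at least 2-fold higher and 17.7% at least 2-fold lower. Many genes, and a larger part of the higher ones, thus passed 2-fold only with their largest cell. This does not show that their whole difference rested on a single cell, since leaving out that cell mostly brings a ratio nearer to 0. The pnd28 side also held fewer cells and counts.

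**Figure D1:**
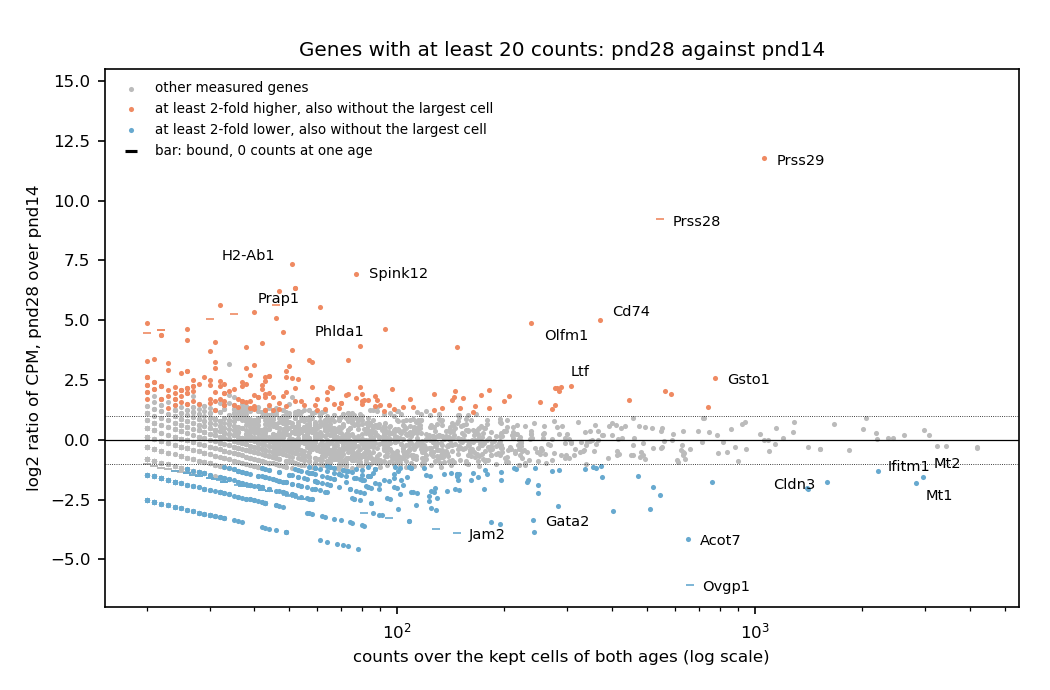
Log2 ratio of the level at pnd28 to that at pnd14 (vertical axis) against the counts over both ages (horizontal axis, log scale) for the 3198 measured genes. Coloured genes were at least 2-fold apart with and without their largest cell. Prss29 at 11.77 and Ovgp1 at a bound of −6.07 lie farthest from 0.

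The pnd14 runs also differed among themselves. With runs thinned to 52935 counts each, 19.3% of genes were at least 2-fold apart between runs 3 and 7, 30.7% between runs 3 and 4 and 29.3% between runs 4 and 7. Between the pnd28 cells and runs 3, 4 and 7 the shares were 34.1%, 41.2% and 33.4%. The distance was wider at 4-fold, with 1.84% to 6.66% of genes among the pnd14 runs and 10.5% to 16.5% between pnd28 and each of them. At these equal totals, 16.2% of genes were higher and 17.8% lower at pnd28 against run 3, 20.2% and 20.98% against run 4, and 16.8% and 16.6% against run 7. These comparisons hold 1082 to 1127 genes and the pnd14 cells of a single run, so their shares are not set against those of the full table.

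The serine proteases Prss28 and Prss29 of the uterine glands stood farthest above pnd14, but their list had members in both directions. Of 7 measured genes for gland proteases and protease inhibitors, 3 (42.9%) were at least 2-fold higher and 1 (14.3%) lower, beside 12.1% and 23.7% of all measured genes. The median log2 ratio of this list was 0.19, and 0.12 without the largest cell. Prss28 and Prss29, which code for secreted implantation serine proteinases, lie side by side on chromosome 17. Prss29 had 1064 counts at pnd28 and 1 at pnd14, or 12968 CPM [12201, 13772] against 3.72 [0.0942, 20.7]. Prss28 stood at 6643 CPM [6097, 7225] against 0, at least 595.2-fold higher. Because these neighbours were high together, the 250 bases before each start site are shown, with capitals for the runs of at least 12 bases that both hold.
Prss28, chr17:25308396-25308645, + strand, GRCm38.p6: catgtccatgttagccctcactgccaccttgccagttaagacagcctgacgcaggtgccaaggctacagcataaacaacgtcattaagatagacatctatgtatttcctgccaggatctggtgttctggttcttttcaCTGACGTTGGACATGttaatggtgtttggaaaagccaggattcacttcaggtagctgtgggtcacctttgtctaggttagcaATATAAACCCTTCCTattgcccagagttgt
Prss29, chr17:25318404-25318653, + strand, GRCm38.p6: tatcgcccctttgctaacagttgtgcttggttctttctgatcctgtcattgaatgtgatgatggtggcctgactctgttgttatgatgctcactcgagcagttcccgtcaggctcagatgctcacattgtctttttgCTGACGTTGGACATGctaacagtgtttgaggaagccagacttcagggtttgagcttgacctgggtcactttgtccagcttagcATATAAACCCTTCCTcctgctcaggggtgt

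These promoters, taken from RefSeq, share 2 runs of 15 bases. The run nearer the start begins 30 bases before it in both genes and holds the TATA-box letters TATAAA. The other ends 98 bases before the start of Prss28 and 99 bases before that of Prss29. TATAAA stood on either strand in 12.4% of the 32851 mouse promoters of the same length. The annotated transcripts of Prss28 and Prss29 share 0 words of 30 bases, so reads of one are not expected to match the other.

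Most of the protease counts lay in few cells. Among the 48 pnd28 cells Prss29 ran from 0 to 670 counts with a median of 5, while a single pnd14 cell had a count of it. The 2 highest cells together held 815 of 1064 counts of Prss29, and they also held 420 counts of Prss28, which stood at 75991 CPM in them. They held 83 of 160 counts of Clu, a secreted chaperone, and 21 of 35 of Pigr, the polymeric immunoglobulin receptor. The first of them also held 30 counts of Hspa5, the most in any pnd28 cell. Hspa5 is the chaperone BiP of the endoplasmic reticulum. Low Prss29 counts were nevertheless spread across the age, in 42 of the other 46 cells, at 3254 CPM [2862, 3684] and a log2 ratio of 9.77 over pnd14.

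The dropped pnd28 cells, which carry muscle genes, had Prss29 in 8 of 8 cells at 5633 CPM, more than those 46 kept cells. The share of cells with a count is therefore not read as a share of cells that express Prss29. Prss28 was counted in 2 of these 8 cells at 845 CPM, against 1634 CPM in the other 46 kept cells, which gave a bound of 7.19 on the log2 scale. At pnd56 neither protease had a count, and at pnd7 Prss29 stood at 21.4 CPM. Wfdc2, an abundant secreted whey acidic protein, was near level, at 8252 CPM against 7209.

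Spink12, which codes for a Kazal-type inhibitor of serine proteases, had 75 counts at pnd28 and 2 at pnd14, a log2 ratio of 6.94 [5.04, 10.01]. Its counts lay in 8 of 48 cells, and the 2 highest, with 46 and 19, held 65 of the 75. Those cells had 9 and 5 counts of Prss29 and none of Pigr. In the other 46 cells Spink12 stood at 126.1 CPM [60.47, 231.9], beside 140.8 CPM in the dropped pnd28 cells. The ratio was 5.60 without the largest cell and 3.60 without the 3 largest.

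**Figure D2:**
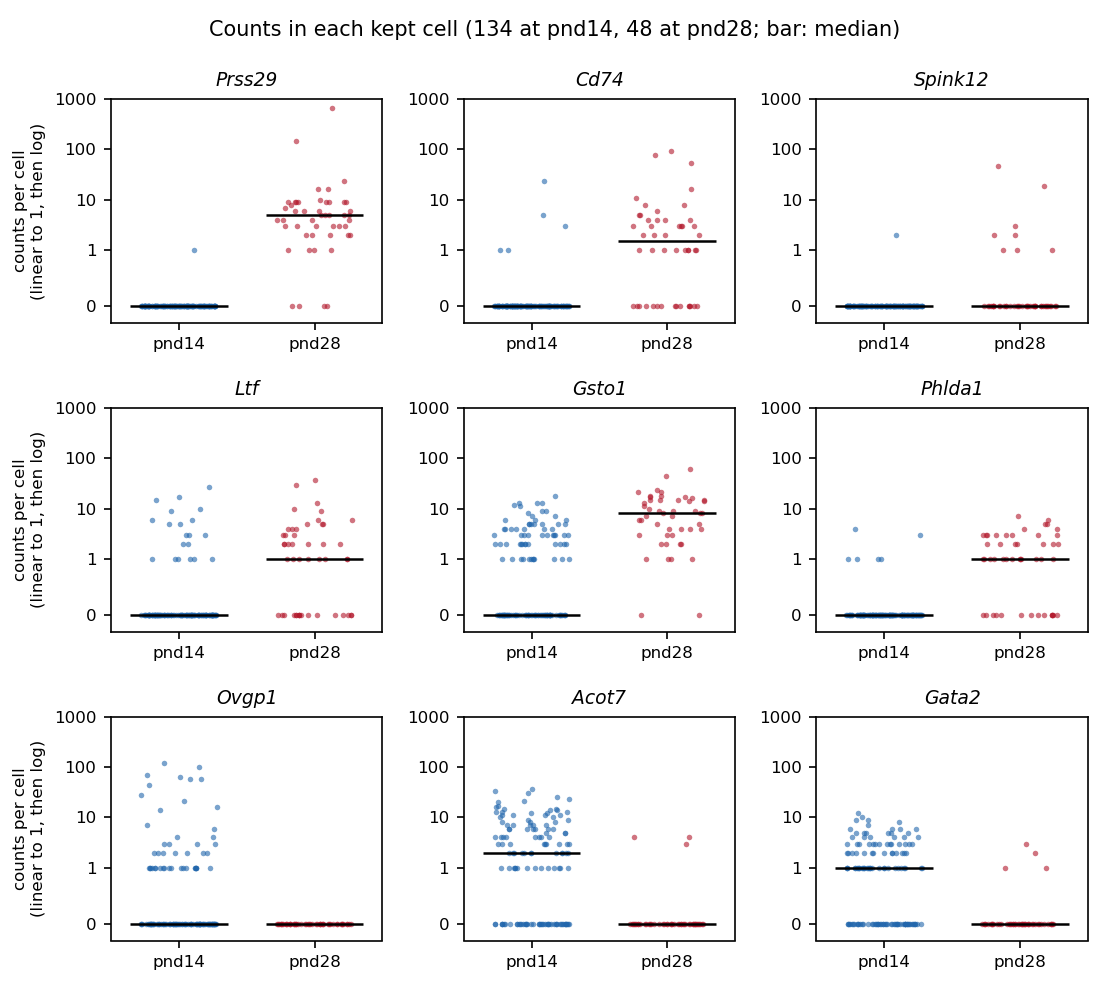
Counts of 9 genes in each kept pnd14 cell and each of the 48 kept pnd28 cells (points), with the median of each age as a bar and a vertical axis that is linear near 0 and logarithmic above. Prss29 and Gsto1 were counted in 44 and 46 of the pnd28 cells, Spink12 in 8 and Ovgp1 in 0.

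Genes of MHC class II, which shows peptides to helper T cells, were higher at pnd28. Of 6 measured genes of the list, 5 were at least 2-fold higher and 1 lower, beside 12.1% and 23.7% of all measured genes. All 6 also passed 2-fold without their largest cell, where the shares of all measured genes were 6.72% and 17.7%. The median log2 ratio with all cells was 4.15. Cd74, the invariant chain that escorts class II molecules, had a level of 4083 CPM [3657, 4545] against 126.5 [87.6, 176.7], with counts in 33 of 48 cells at pnd28 and in 5 cells at pnd14. The class II beta chain H2-Ab1 had 50 counts against 1, and H2-Eb1, another beta chain, had 46 against 0, at least 50.2-fold higher. H2-DMa, a chain of the molecule that loads peptides, stood at 182.8 CPM against 18.6, and Ctsh, a lysosomal cathepsin, at 901.9 against 264.1. Rfx5, a regulator of class II genes, was lower, with 2 counts against 27.

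Class II genes are known to share promoter elements, among them the CCAAT-type Y box. The bases before the start of H2-Eb1 are shown with capitals where the letters CTGATTGG of such a box were found.
H2-Eb1, chr17:34305617-34305866, + strand, GRCm38.p6: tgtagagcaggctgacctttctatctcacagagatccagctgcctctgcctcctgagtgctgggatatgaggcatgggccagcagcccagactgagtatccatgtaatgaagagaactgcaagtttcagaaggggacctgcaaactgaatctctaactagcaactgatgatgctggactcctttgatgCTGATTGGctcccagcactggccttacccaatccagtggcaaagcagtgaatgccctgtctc

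The letters lie 62 to 55 bases before the start of H2-Eb1. On either strand CTGATTGG stood in 3.83% of the 32851 promoters, and its presence is a description of the sequence only.

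A few cells carried much of the class II sum. The 3 pnd28 cells with most Cd74, with 94, 77 and 54 counts, had it at 38554 CPM, and they held 39 of 50 counts of H2-Ab1, 41 of 46 of H2-Eb1 and 12 of 15 of H2-DMa. H2-Oa, a chain of the class II regulator H2-O, had all 12 of its counts there. These cells had 5, 8 and 3 counts of Krt18 and 17, 1 and 2 counts of the leukocyte markers, and the first had 7 of the 8 counts of Tyrobp, a leukocyte signalling adaptor. The 12 leukocyte markers in the table summed to 49 counts at pnd28 and 50 at pnd14, or 0.0597% and 0.0186% of all counts, with a highest cell of 17 and 8. Ptprc, the common leukocyte antigen, was at 0 in the kept cells of both ages.

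In the other 45 pnd28 cells the class II genes kept different parts of their counts. Cd74 was counted in 30 of them, at 1443 CPM [1186, 1740] and a log2 ratio of 3.51 [2.95, 4.11] over pnd14. H2-Ab1 kept 11 counts in 5 cells, a log2 ratio of 5.28 [2.50, 10.71] over its single pnd14 count. H2-Eb1 kept 5 counts in 3 cells, a bound of 2.56, and H2-DMa 3 counts in 2 cells, at 1.08 [−1.61, 3.44]. The dropped pnd28 cells had Cd74 in 5 of 8 at 2535 CPM, above the level in those 45, so the spread of low Cd74 counts is not read as expression in each cell. At pnd14, 1 cell held 24 of the 34 Cd74 counts, and the level was 19.3, 604.5 and 0 CPM in runs 3, 4 and 7. Without run 4 the log2 ratio of Cd74 was 8.78.

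MHC class I and interferon-induced genes did not share a direction. Of 20 measured, 5 (25%) were at least 2-fold higher and 3 (15%) lower, beside 12.1% and 23.7% of all measured genes. Without the largest cell 3 were higher and 3 lower, and the median with all cells was −0.23. Ly6e, an interferon-induced surface protein, stood at 3791 CPM against 933.7, a log2 ratio of 2.02 [1.78, 2.27], and the class I heavy chain H2-D1 had 1.47 [1.12, 1.82]. Ifi27, an interferon-induced membrane protein, stood at 524 CPM against 52.1. The ratio of B2m, the class I light chain, was 1.06, and 0.80 without its largest cell. Ifitm1, an interferon-induced transmembrane protein, was lower, at 2974 CPM against 7302 and −1.30 [−1.49, −1.10].

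Secreted proteins of the mucosal barrier were higher at pnd28. In this list 7 of 8 measured genes (87.5%) were at least 2-fold higher and 0 lower, beside 12.1% and 23.7% of all measured genes. The numbers were the same without the largest cell, and the median with all cells was 2.16. Pigr, which carries immunoglobulin A across epithelia, had 35 counts against 0, at least 38.2-fold higher, in 6 cells. Prap1, a secreted proline-rich acidic protein, had 695 CPM [526.2, 900.1] against 14.9 [4.05, 38.1], with a count in 29.2% and 2.24% of cells. It reached 12770 CPM at pnd56. Its 3′ end overlaps Fuom on the other strand. Fuom had 51 of the 82046 counts at pnd28 and 80 of the 268815 at pnd14, a larger share at pnd28. Whether the counting used strand is not given.

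Ltf, the iron-binding protein lactotransferrin, ran from 0 to 37 counts per cell at pnd28 with a median of 1, and from 0 to 27 at pnd14 with a median of 0. The ranges of the ages overlap, while the summed level was 2048 CPM against 442.7, a log2 ratio of 2.21 [1.86, 2.56]. Ltf stood at 559.2, 188.9 and 454.7 CPM in pnd14 runs 3, 4 and 7, each below pnd28. Fcgbp, a protein of mucus, had a log2 ratio of 1.92, Muc1, a cell surface mucin, 1.69 and the complement factor Cfb 2.16. The ratio of Clu rested more on few cells, at 2.16 with all cells, 1.63 without the largest and 0.83 without the 3 largest. Lgals3, a galectin, was level at 0.03.

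Measured oestrogen-responsive genes shared this direction. Of 10 measured, 9 (90%) were at least 2-fold higher and 0 lower, beside 12.1% and 23.7% of all measured genes. Without the largest cell 8 were higher, and the median with all cells was 1.72. Ltf, Clu, Muc1 and the Sprr2 genes stand in other lists too. Car12, a carbonic anhydrase, had 426.6 CPM against 26.04, with a count in 39.6% against 2.99% of cells. Its relative Car2 had a log2 ratio of 1.65, and Cdkn1a, an inhibitor of the cell cycle, stood at 377.8 CPM against 133.9. Wnt7a, a Wnt ligand of the uterine epithelium, had 1.32 but 0.97 without its largest cell. Padi2, a deiminase of protein arginine, was the measured member not higher, at −0.87 [−2.86, 0.67]. Most of the list had too few counts to be measured. Of its 30 genes in the table, 8 had 0 counts at pnd28, among them Pgr and Greb1, and 6 had 0 at pnd14, among them Lcn2 and Aqp8. Esr1, the oestrogen receptor itself, did not move beyond its interval, at 377.8 CPM against 427.8, −0.18 [−0.80, 0.40] and a count in 37.5% against 35.8% of cells.

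Small proline-rich proteins, precursors of the cornified envelope, had all measured genes at least 2-fold higher, beside 12.1% of all measured genes of the table. The table lists Sprr2a2 and Sprr2a3 with 50 counts each at pnd28 and 2 each at pnd14, and as their transcripts share 72.6% of 30-base words these values are taken as a single measurement. With the pair counted once, 3 of 3 genes were higher with a median of 5.34, and with both listed, 4 of 4 with a median of 5.85. Both are among the 30 named genes. The counts lay in 15 of 48 cells, at most 10 in a cell, and the log2 ratio of 6.36 [4.43, 9.44] was 6.06 without the largest. Sprr2f had 37 counts against 3, and Sprr2g 39 against 38, of which 1 pnd14 cell held 23. The 9 squamous and basal markers in the table summed to 65 counts against 12, a log2 ratio of 4.15 [3.25, 5.17], with at most 17 and 3 in a cell. Krtdap had 22 counts against 0, Trp63 17 against 2, Dsg3 9 against 0 and Sbsn 9 against 8. Krt13 had 5 against 0, Krt15 3 against 1 and Col17a1 0 against 1. The keratins Krt14 and Krt6a were at 0 at both ages, and the planned markers Krt5 and Krt4 were not in the table. The part of squamous or basal cells in the levels of the Sprr2 genes was not tested.

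Other genes were spread more evenly over the pnd28 cells. Gsto1, a glutathione transferase of the omega class, ran from 0 to 60 counts with a median of 8 at pnd28 and from 0 to 18 with a median of 0 at pnd14. It was counted in 95.8% against 47.8% of cells, and its level was 6118 CPM [5595, 6678] against 1012 [895.2, 1140]. The log2 ratio of Gsto1 was 2.60 [2.38, 2.81], 2.45 without the largest cell and 2.32 without the 3 largest, with 858.1, 1190 and 1070 CPM in the pnd14 runs. Phlda1, a pleckstrin homology-like protein induced by growth signals, was counted in 70.8% against 4.48% of cells, with at most 7 and 4 counts in a cell. Its level was 999 CPM against 40.9 and its log2 ratio 4.61 [3.70, 5.67], or 4.38 without the 3 largest cells.

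Both genes were also high in the dropped pnd28 cells, Gsto1 at 5140 CPM in 7 of 8 cells and Phlda1 at 1127 CPM in 6 of 8, so counts of them were not limited to cells that passed the muscle rule. Pim1, a serine/threonine kinase, had 792.2 CPM against 52.1, with a count in 24 of 48 pnd28 cells and in 7.46% of pnd14 cells. Olfm1, a secreted olfactomedin glycoprotein, stood at 2608 CPM against 89.3, but a single cell held 94 counts, and its log2 ratio of 4.87 was 3.25 without the 3 largest cells. Upk3bl, a uroplakin-like membrane protein, stood at 670 CPM against 66.96, with 133.7 CPM in pnd14 run 7 and 19.3 and 18.9 in runs 3 and 4. It had 1 count in the 8 dropped pnd28 cells and was at 440 CPM at pnd0.

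Immediate early and stress-response genes were higher in part. Of 21 measured, 7 (33.3%) were at least 2-fold higher and 0 lower, beside 12.1% and 23.7% of all measured genes. The numbers were unchanged without the largest cell, and the median was 0.61. Ier3, an early response gene, was counted in 93.8% against 52.2% of cells at 3827 CPM against 1004, and Gadd45b, a stress sensor, stood at 1938 CPM against 468.7. Fosl1, a partner of Jun proteins, had 30 counts against 0, at least 32.8-fold higher, and its 3′ end overlaps Ccdc85b. Among other members, Fos stood at 0.19 [0.07, 0.31], Egr1 at 0.33 [0.09, 0.56] and Jun at −0.58 [−1.18, −0.03]. Btg2, Klf4, Socs3 and Zfp36 had 0 counts at both ages. The part of cell isolation in the levels of these genes was not tested.

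Among genes of keratins and junctions, 6 of 23 measured (26.1%) were at least 2-fold higher and 5 (21.7%) lower, beside 12.1% and 23.7% of all measured genes, with a median of 0.39. Without the largest cell 4 were higher and 5 lower and the median turned to −0.10. Perp, a desmosome protein, stood at 2218 CPM against 461.3 and the keratin Krt7 at 938.5 against 282.7. Cldn3, a claudin of tight junctions, went the other way, with a median of 1 count per cell at pnd28 and 9 at pnd14. The level of Cldn3 was 1584 CPM [1324, 1881] against 5450 [5174, 5736], and the pnd14 runs lay close together at 5650, 5290 and 5340. Its log2 ratio was −1.78 [−2.05, −1.52] and stayed at −1.72 without the 3 largest cells. Krt18 itself had −0.42 and Cdh1, the adhesion protein E-cadherin, 0.10.

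Connective tissue genes were higher, in part through single cells. Dcn, the proteoglycan decorin, had 1463 CPM against 100.4, with a count in 58.3% against 7.46% of cells, and 1 cell held 50 of its 120 counts. Dcn was still higher in the dropped cells, at 4999 CPM at pnd28 and 563.2 at pnd14. The stroma markers summed to 0.335% of counts against 0.0632%, with a highest cell of 73 and 39 counts, and 6 of 6 measured were at least 2-fold higher but 3 without the largest cell. A pnd28 cell with no Krt18 count held 28 of 41 counts of the matrix protease Mmp2, 16 of 23 of the collagen Col1a2, 13 of 18 of Col3a1 and 22 of 25 of Thy1, a fibroblast surface protein. Without it the log2 ratios were 2.14 for Mmp2, −0.18 for Col1a2, −0.56 for Col3a1 and 0.18 for Thy1. In the list of extracellular matrix and adhesion genes 10 of 24 (41.7%) were at least 2-fold higher, beside 12.1% of all measured genes, and 6 without the largest cell. The part of stroma RNA in the levels of other genes was not tested beyond leaving out cells.

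Ovgp1, the oviductal glycoprotein, had the lowest bound of the named genes. It had 0 counts in 48 pnd28 cells, for which 6.25% (3 divided by 48) is a rough upper limit of the share of cells with a count, not an exact one. At pnd14 it had 660 counts, in 46 cells (34.3%), and the median cell had 0. The level was 0 CPM [0, 44.96] against 2455 [2272, 2650], at least 67.1-fold lower. All pnd14 runs held it, at 1485, 2172 and 3486 CPM, and the dropped pnd14 cells had 1690. Without the 19 cells that held 3 or more counts of Ovgp1 the bound was −1.99 on the log2 scale. Oviduct secretory markers summed to 5 counts at pnd28 and 673 at pnd14, nearly all of them Ovgp1, so that the list adds no second marker.

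Several enzymes were among the lower named genes. Acot7, a thioesterase of fatty acyl-CoA, had 11 counts in 3 of 48 cells at pnd28 and was counted in 87 cells (64.9%) at pnd14, with medians of 0 and 2 and at most 4 and 36 in a cell. Its level was 134.1 CPM [66.93, 239.9] against 2377 [2196, 2569], 17.7-fold lower. The log2 ratio of Acot7 was −4.15 [−5.16, −3.30] and −3.94 without the 3 largest cells, and the pnd14 runs stood at 2275, 1549 and 2862 CPM. Galm, an epimerase of galactose use, stood at 60.9 CPM against 881.7, and Slc25a48, of the mitochondrial carrier family, at 182.8 against 1436. Nme7, of the nucleoside diphosphate kinase family, was counted in 16.7% against 76.9% of cells at 243.8 CPM against 1827. The cytochrome P450 gene Cyp2t4 stood at 60.9 CPM against 707, and its 3′ end overlaps Egln2 on the other strand, as that of Nme7 overlaps Atp1b1 (3 counts against 12). Acot7 was at 112.5 CPM at pnd7 and, with 2 counts, at 25.1 CPM at pnd56, both below pnd14, while Galm was at 1047 CPM at pnd7.

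Receptors, regulators and structural genes were also among the lower genes. Gata2, a transcription factor tied to progesterone action in the uterus, ran from 0 to 3 counts per cell at pnd28 with a median of 0 and from 0 to 12 at pnd14 with a median of 1. Its level was 85.3 CPM against 866.8, a log2 ratio of −3.34 [−4.68, −2.28], with 867.8, 1398 and 615 CPM in the pnd14 runs. The junction protein Jam2 was at 0 against 546.8 CPM, a bound of −3.90, and the long noncoding RNA Rmst at 0 against 479.9 CPM, a bound of −3.71. Fgfr2, a receptor of fibroblast growth factors, had 0 counts against 81, and Rhbdd3, a rhomboid-domain protein, 0 against 95. Lpar3, a receptor of lysophosphatidic acid needed for embryo spacing, had 0 against 55, and Sra1, the steroid receptor RNA activator, 0 against 54. Cirbp, a cold-inducible RNA-binding protein, was counted in 10.4% against 55.2% of cells, and Pdlim1, an actin-associated adaptor, in 14.6% against 69.4%.

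The list of progesterone-responsive genes had 2 of 9 measured genes (22.2%) at least 2-fold higher and 6 (66.7%) lower, beside 12.1% and 23.7% of all measured genes. Without the largest cell 2 were higher and 5 lower, and the median with all cells was −1.46. Beside Gata2, the transcriptional coregulator Cited4 was lower, at 390 CPM against 1908 and counted in 20.8% against 67.9% of cells. Irg1, an enzyme that makes itaconate, had 1 count against 31, and Calb1, a calcium-binding protein, 0 against 37. Cyp26a1, which breaks down retinoic acid, was higher at 317 CPM against 48.4, and so was the kinase Sgk1 at 463.2 against 104.2. Irg1 and Cyp26a1 lay in 8 and 6 cells of their higher age.

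Metallothioneins, which bind zinc and copper, were lower across cells. Mt1 had a median of 4 counts per cell at pnd28 and 17.5 at pnd14, and a level of 2718 CPM [2373, 3099] against 9653 [9286, 10032]. The runs of pnd14 lay close together, at 8812, 9521 and 10494 CPM, and at pnd7 Mt1 was at 1900 CPM, below pnd28. Mt2 had medians of 3 and 17 and a log2 ratio of −1.54 [−1.72, −1.36]. Within the list of detoxifying enzymes, which holds Gsto1 as well, 4 of 19 (21.1%) were at least 2-fold higher and 5 (26.3%) lower. Of all measured genes 12.1% were higher and 23.7% lower. Without the largest cell 2 of the list were higher and 5 lower, and its median with all cells was −0.35. Gpx1, a glutathione peroxidase, was higher, at 4022 CPM against 1536.

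Retinoid genes had members in both directions. Of 14 measured, 3 (21.4%) were at least 2-fold higher and 4 (28.6%) lower, beside 12.1% and 23.7% of all measured genes, and their numbers were the same without the largest cell. Fabp5, a carrier of fatty acids and retinoic acid, had 42 counts against 6 and was counted in 35.4% against 1.49% of cells, and the retinal reductase Dhrs3 stood at 1304 CPM against 368. Aldh1a1, which makes retinoic acid, had 1 count against 48, and the retinol dehydrogenase Rdh10 had 4 against 55.

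Histones that are made with DNA replication were lower, 20 of 23 measured genes by at least 2-fold and 0 higher, with a median of −2.18. Without the largest cell 17 were lower, with a median of −1.76. The table lists Hist1h2ao with 97 counts against 1314 and Hist1h2ap with 97 against 1302, and their transcripts share 93.8% of 30-base words, so the histone genes are not separate measurements. Hist1h2ao stood at 1182 CPM against 4888, with 280 counts in a single pnd14 cell and 4435, 9578 and 3094 CPM in runs 3, 4 and 7. Other genes of division had members in both directions. Of 12 S phase genes 3 (25%) were at least 2-fold higher and 1 (8.33%) lower, beside 12.1% and 23.7% of all measured genes, with a median of 0.37. Without the largest cell 2 were higher and the median turned to −0.21. Of 6 genes of G2 and M phase 0 were higher and 3 lower, with a median of −0.53, and 2 were lower without the largest cell.

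Transcription factors of Müllerian duct patterning and epithelial identity had 1 of 20 measured genes at least 2-fold higher and 7 (35%) lower, beside 12.1% and 23.7% of all measured genes, with a median of −0.79. The numbers were the same without the largest cell, where the shares of all measured genes were 6.72% and 17.7%. Hoxb7, a homeobox gene of body axis patterning, had 2 counts against 55, Tead1, a partner of the Hippo pathway, 3 against 49, and Wt1, a regulator of urogenital development, 3 against 38. In the Wnt list 3 of 16 (18.75%) were at least 2-fold higher and 3 (18.75%) lower, 2 and 2 without the largest cell. Among genes of Notch, Hedgehog, FGF, BMP and TGF-beta signalling 5 of 14 (35.7%) were higher and 2 (14.3%) lower, 3 and 2 without the largest cell. Smad7, an inhibitor of TGF-beta signalling, had 24 counts against 6. Genes of the secretory pathway and the unfolded protein response had 9 of 36 (25%) at least 2-fold higher and 2 (5.56%) lower, and 4 and 2 without the largest cell. Hspa5 had 1974 CPM against 442.7, with a count in 83.3% against 38.8% of cells, and without the 2 cells with most Prss29 its log2 ratio was 1.95.

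Housekeeping pathways had medians on both sides of that of all genes, −0.22. The respiratory chain and ATP synthase had 1 of 31 measured genes at least 2-fold higher and 8 (25.8%) lower, near the 23.7% of all measured genes, with a median of −0.21. Translation factors had 4 of 31 (12.9%) higher and 1 (3.23%) lower, beside 12.1% and 23.7% of all measured genes, with a median of −0.03. In glycolysis and hypoxia 1 of 12 was higher and 4 lower, with a median of −0.51. In cholesterol and fatty acid use 5 of 22 were higher and 5 lower, and the median of 0.18 turned to −0.41 without the largest cell. In ion transport 2 of 15 were higher and 4 lower, with a median of 0.20. Early growth and chromatin genes had 0 of 7 higher and 1 lower, steroid receptors and cofactors 2 of 10 in each direction, and mucin-type glycosylation 0 of 3 in either.

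**Figure D3:**
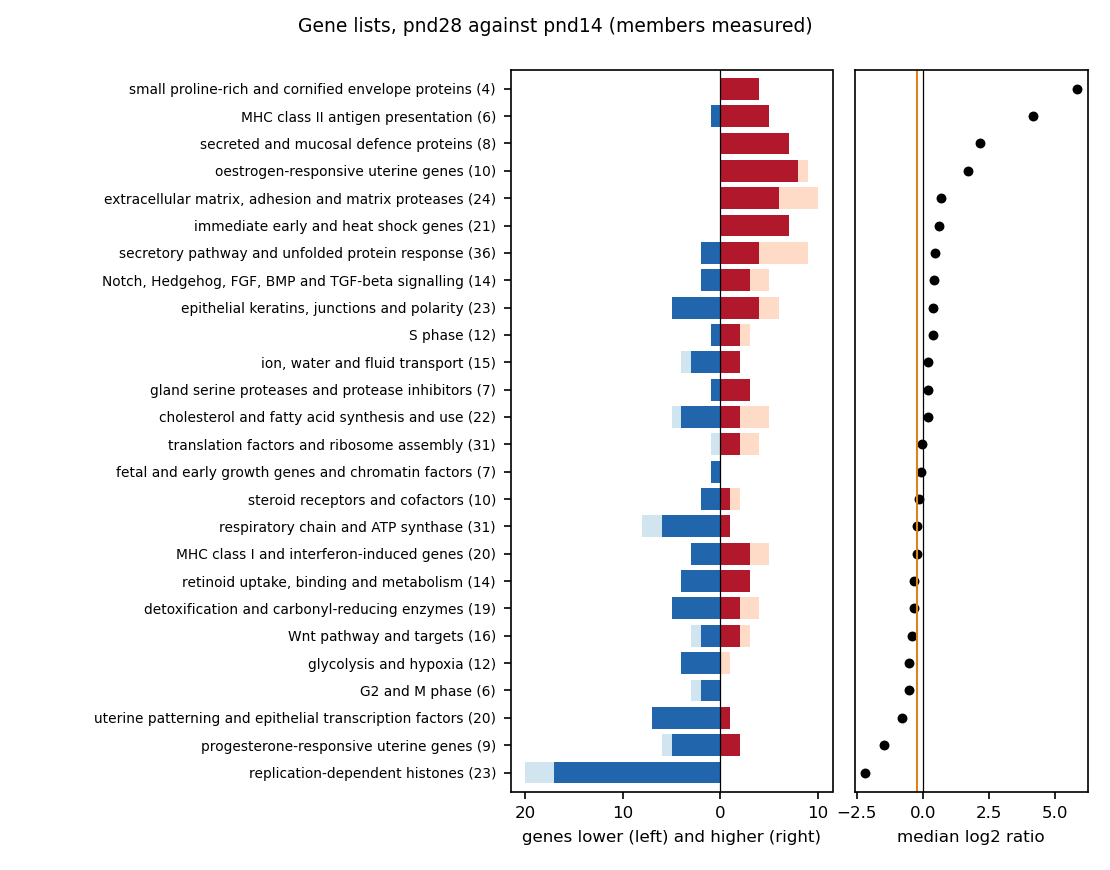
Left, the number of measured genes of each list at least 2-fold higher or lower at pnd28 (lighter bars) and still so without the largest cell (darker bars). Right, the median log2 ratio of each list as a point, with a line at −0.22, the median over all measured genes. Small proline-rich proteins (5.85, with Sprr2a2 and Sprr2a3 both counted) and MHC class II genes (4.15) lie farthest to the right and histones (−2.18) farthest to the left.

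Many of the differences lay in few cells. Among all measured genes still at least 2-fold apart without the largest cell, a median of 3 cells (6.25% of the pnd28 cells) held 50% of the counts of higher genes, and a median of 5 cells (3.73% of the pnd14 cells) those of lower genes. The median share of cells with a count was 20.8% for these higher genes at pnd28 and 13.8% for the lower genes at pnd14. Of the 34 higher and 92 lower genes with at least 50 counts and a 4-fold difference, 0 came under 2-fold without their largest cell. Leaving out the 3 largest cells brought 3 of them under 2-fold, which were Clu at 0.83, the annexin Anxa1 at 0.88 and Hist1h2ae at −0.91. Prss28 had the largest loss to 1 cell among the named genes, from a bound of 9.22 to 7.48, and Cd74 went from 5.01 to 4.57 without 1 cell and 3.51 without 3. Gsto1, Phlda1, Acot7 and Gata2 moved by less than 0.3 without 3 cells.

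**Figure D4:**
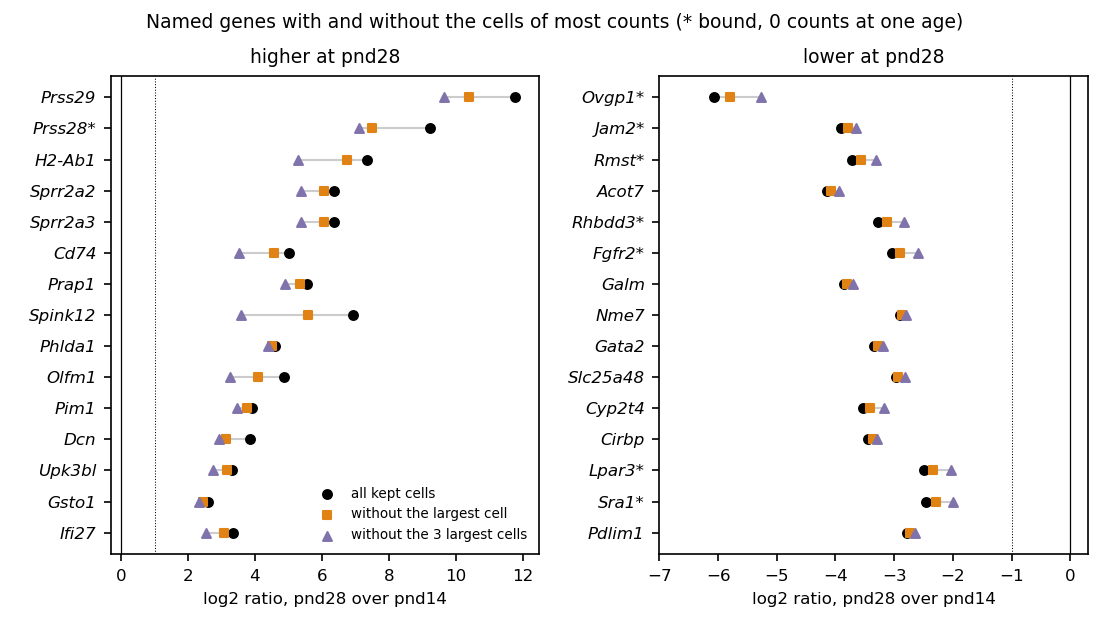
Log2 ratio of the level at pnd28 to that at pnd14 for the 30 named genes, with all cells, without the largest cell and without the 3 largest cells of the higher age. A star marks a bound, where an age had 0 counts. Points of Spink12 run from 6.94 to 3.60 and those of Phlda1 from 4.61 to 4.38.

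The dropped cells gave a second comparison of the ages, in cells that the ratios above did not use, with 8 cells at pnd28 and 39 at pnd14 from the same runs. Among 1089 genes measured there, 14.5% were at least 2-fold higher and 23.1% lower. All 13 of the higher named genes that had a ratio were at least 2-fold higher in the dropped cells too, from 1.59 for Ifi27 to a bound of 7.32 for Prss29, with a median of 3.26. Spink12 with 2 counts and Upk3bl with 1 were too sparse for a ratio. Among the 15 lower named genes, 9 were at least 2-fold lower, among them Acot7 at −3.13 [−5.43, −1.56]. Ovgp1 had 0 counts there at pnd28 and stood at 1690 CPM at pnd14, with an interval that ends at −2.68 on the log2 scale. Rmst, Fgfr2, Lpar3 and Sra1 had 0 counts at pnd28 and too few at pnd14 to give a bound other than 0. As the dropped cells share the runs, this comparison does not tell age and run apart.

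**Figure D5:**
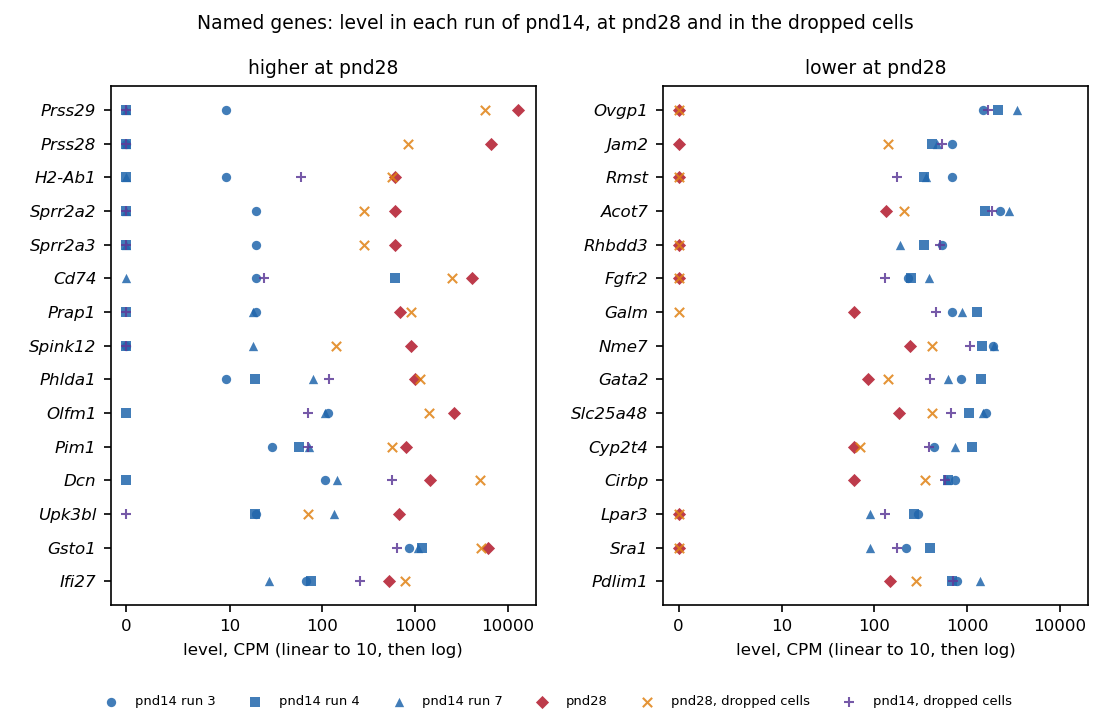
Level in CPM of the named genes in the kept cells of pnd14 runs 3, 4 and 7, in the kept pnd28 cells and in the dropped cells of each age. Gsto1 was at 858.1 to 1190 CPM in the pnd14 runs and at 6118 and 5140 CPM in kept and dropped pnd28 cells, and Acot7 at 1549 to 2862 CPM in the runs and at 134.1 and 211.2 CPM.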

How the data were processed

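The authors deposited a table of whole-number counts per gene and cell, with no normalization. Per the submitters' processing notes TopHat, Cuffnorm and the mm9 build were used, with no roles or versions given, and the sources used here do not say whether molecular identifiers or strand entered the counting. Columns were matched to cells through their labels. Cells with at least 5 counts of 4 muscle genes were dropped, and counts were summed per age. Ratios of counts per 1000000 counts (CPM) have 95% intervals from the exact binomial test conditional on their sum, and levels have exact Poisson intervals. All cover counting error only. Zeros were set to 3 counts per age. Doublets were not called.

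The members and lists were chosen with earlier results of these data known. Named genes were the first 15 per direction with at least 50 counts, a count in at least 10% of cells of the higher age, and a 2-fold difference pooled, without the largest cell and against each pnd14 run, ranked by the interval bound nearest to no difference without that cell. Other genes named are members of the 27 theme and 13 marker lists or were chosen after their values were seen. In all, 17 alternatives were planned and 4 added after the data were seen. The ratio and the leave-out rule were tried on simulated data, with Poisson counts drawn separately for each gene and cell. The simulated data held no cell types or differences between animals, so the trial does not show how the rules act on the real counts. RefSeq promoters (GRCm38.p6) held an entry for 20 of the 30 named genes, and shared words were counted in GENCODE M21 transcripts. Python 3.11.15, numpy 2.4.6, pandas 2.3.3, scipy 1.17.1, matplotlib 3.10.9 and edgeR 4.0.16 (TMM factors only, in R 4.3.3) were used.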

Additional observations from a re-analysis of the deposited data

How the results depend on the processing

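No paired analysis was possible because each age is 1 sample and no test was made. Over 21 alternatives, none of the 30 named genes changed direction, but the rule that named them asked for 2-fold without the largest cell and against each pnd14 run, so this is no sign of stability. The widest spreads were 3.51 to 8.78 for Cd74, 3.60 to 8.22 for Spink12 and −6.39 to −1.99 for Ovgp1 on the log2 scale. The shares of measured genes higher and lower also without their largest cell, 6.72% and 17.7%, were 5.66% and 15.04% of 1483 genes with at least 50 counts, 5.72% and 13.04% of genes with at least 100 counts, and 7.01% and 18.1% of 1869 genes with each cell thinned to 1000 counts. Their numbers moved by over 1.5 times (for example to 84 higher genes with at least 50 counts, and to 36 higher and 82 lower with at least 100), since fewer genes enter. With at least 1 count, 371 of 6390 genes (5.81%) were higher and 11.9% lower. The median ratio over all genes, −0.22, was 0.00 with at least 1 count, −0.35 with median-of-ratios scaling (a shift of −0.13), −0.50 without the largest cell in each age, and −0.34 without the 3 largest cells. Leaving out each pnd14 run in turn gave 7.38% to 8.26% higher genes, 15.46% to 17.36% lower genes and medians of −0.19 to −0.13. Among list medians of at least 0.5 in size, the sign changed for patterning factors (0.13 with at least 100 counts), glycolysis (0.39 with at least 1 count), extracellular matrix (−0.059 without the 3 largest cells) and G2 and M phase, which was 0.091 with no cell dropped, 0.062 with cells of at least 2 muscle counts dropped and 0.15 without cells of at least 3 leukocyte counts. Of 15 lists with a median nearer 0, 12 changed sign under at least 1 alternative, and 5 did so without the largest cell of the higher age, which were S phase (0.37 to −0.21), keratins and junctions (0.39 to −0.10), cholesterol and fatty acid use (0.18 to −0.41), translation factors (−0.03 to 0.06) and early growth genes (−0.06 to 0.02). The causes were not tested. With 48 pnd28 cells, a gene with no count there could have a count in roughly up to 6.25% of such cells (3 divided by 48, not an exact limit). This does not limit the share of cells that express it, and without replicate animals the spread between animals is unknown.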
